A study of Sus scrofa with 2 samples.

Results

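Windows of intermediate methylation, in which about as many reads were methylated as unmethylated, were described in 2 female Tibetan pigs. The tissue was longissimus dorsi, a large muscle along the spine. The autosomes were divided into fixed windows of 1 kb, and a window was kept if at least 10 CpGs were listed in both libraries with at least 5 reads each. A window was chosen if 40 to 60% of its reads were methylated in both libraries and if the mean depth was at most 40 reads per CpG in both. These measured levels chose 1657 of the 49188 windows that met the CpG and depth conditions (3.37%), with 19767 shared CpGs. The level itself, the likeness of the 2 libraries in level and the size of their difference are thus set by the choice and are given as a description.

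The high-altitude pig was free-ranging, from the Tibetan highland (4000 m on average). The low-altitude pig was kept on ordinary feed under experimental conditions on the Chengdu plain (500 m on average), and its forebears had been bred in the lowland for generations. Breed, sex and tissue were shared, and neither age is stated in the sources used here. A single pig of each group was sequenced, so altitude, feeding, housing, descent and the individual cannot be told apart, and every test below compares 2 libraries, or parts of a library, and not 2 altitudes.

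In mammals most CpGs are methylated on both copies of a chromosome, while active promoters and many CpG-dense islands are free of methylation. Intermediate levels have several known forms. At the control regions of imprinted genes the copy from 1 parent is methylated and the other is not, over short stretches, and every CpG of such a region then reads at a similar middle level. A middle level also arises where a tissue mixes cells with and without methylation, or where a window spans the border between a methylated and an unmethylated stretch. In bulk DNA of a tissue, methylation of 1 copy in all cells cannot be told apart from methylation of both copies in a part of the cells.

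The cytosine lists hold only cytosines with at least 1 methylated read and at least 5 reads in all. CpGs without methylated reads are missing, so the level of a window refers to its listed CpGs. The libraries listed 10441830 and 10104625 cytosines with 100150962 reads at high and 95631436 at low altitude, and 6397643 autosomal cytosines were listed in both. Sequences of the windows are not shown, since no genome of the build of the files was used here, and for the same reason no genes are named.

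The chosen windows were no denser in listed CpGs than other windows that met the same conditions. Their median was 11 shared CpGs, as over all 49188 windows, and 1218 of the 1657 (73.5%) held 10 to 12. Only 41 held 20 or more, and the highest number was 34. The share of windows chosen was 3.61% at 10 CpGs (95% Wilson interval 3.33 to 3.90), 2.64% at 15 to 19 CpGs (2.26 to 3.10) and 5% at 25 or more (2.88 to 8.53, 12 of 240 windows). The condition of 10 CpGs itself set these windows apart, since the median over all 1508241 autosomal windows with a shared CpG was 3. A further 1.56 CpGs per chosen window were listed at high altitude only and 1.49 at low altitude only, against 1.72 and 1.78 in the windows not chosen.

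The chosen windows had a median level of 53.2% at high and 52.5% at low altitude, against 80.2% and 79.3% in the windows not chosen. Their median depth was 11.4 and 11.3 reads per CpG, against 10.6 in both libraries for the windows not chosen. A chosen window held 53 to 1101 reads at high and 58 to 1096 at low altitude. At the median of 132 and 130 reads, a level of a single window is known only coarsely, as the intervals of the windows named below show. These intervals cover counting error only and may be too narrow, because reads that span several CpGs, and possible copies of a molecule, are not independent.

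**Figure D1:**
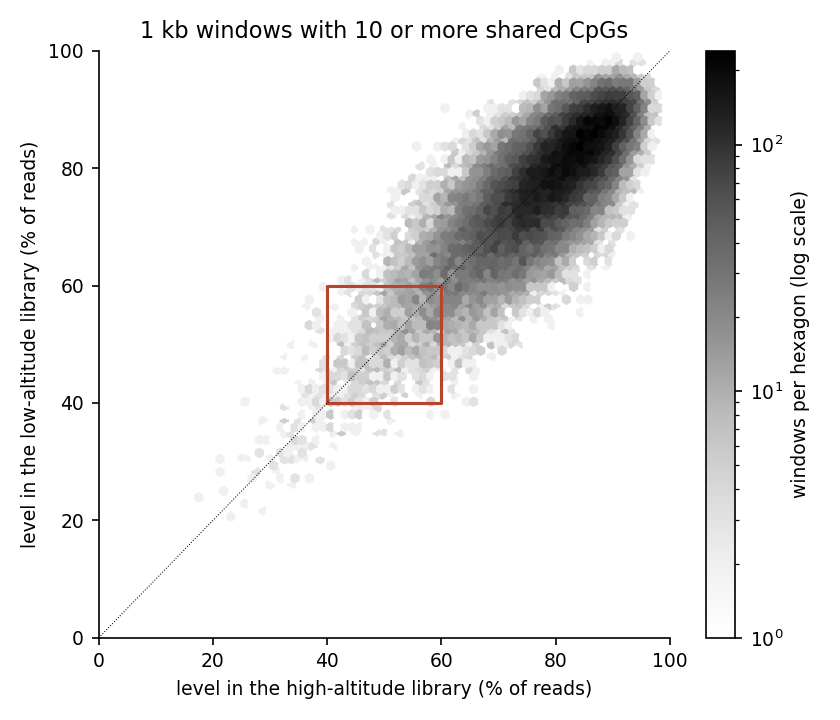
Level of 1 kb windows in the high-altitude library (x axis, % of reads) and the low-altitude library (y axis, % of reads), with the number of windows per hexagon on a log grey scale. The red square holds the 1657 chosen windows at 40 to 60% in both libraries, at the lower edge of a cloud whose median lies near 80%.

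The edges of the band cut through a continuous range of levels, as the plot of levels in both libraries shows. At the lower edge, the window on chromosome 1 from 32925001 to 32926000 was just inside, with 36 of 90 reads methylated at high (40%) and 55 of 129 at low altitude (42.6%), and that on chromosome 2 from 53241001 to 53242000 had 40% and 45.5%. Just outside were a window on chromosome 10 from 22257001 to 22258000, with 40.2% and 39.91%, and one on chromosome 1 from 3701001 to 3702000, with 45.5% and 39.87%. At the upper edge, windows on chromosome 1 from 4114001 to 4115000 (60% in both libraries) and from 67603001 to 67604000 (60% and 51.3%) were just inside. A window on chromosome 3 from 6061001 to 6062000 (51.2% and 60.05%) and one on chromosome 2 from 12077001 to 12078000 (47.4% and 60.09%) were just outside. In the library nearest to the edge, the windows just inside and just outside an edge differed by less than 1 point, far within their counting error.

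To see whether an intermediate level recurred in the other pig, windows were chosen in 1 library alone and read in the other. Of 2930 windows at 40 to 60% at high altitude, 1657 (56.6%, 95% Wilson interval 54.8 to 58.3) were also at 40 to 60% at low altitude. Of the others, 1136 were above 60% and 137 below 40%, among them 26 above 80% and none below 20%. Their median level was 54.7% at high altitude, where they were chosen, and 57.1% at low altitude, with quartiles of 50 and 63.7%. In the opposite direction, 3251 windows were chosen at low altitude, and 51.0% of them (49.3 to 52.7) were in the band at high altitude, with a median of 58.9%. Among all 49188 windows, 3251 were in the band at low and 2930 at high altitude. The level of the second library thus lay closer to that of the other windows in both directions, and most windows that left the band did so upwards. With CpGs of at least 10 reads, 67.1% recurred in each direction.

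Between the pigs the chosen windows differed little, within what the band allows, which is at most 20 points. All differences are low minus high altitude. The median difference was −0.52 points with an SD of 5.88 points over windows, and −0.86 points with an SD of 6.99 in the windows not chosen. Of the 1657 windows, 884 (53.3%) were lower, 768 higher and 5 equal at low altitude, and 1015 (61.3%) differed by 5 points or less. In the windows not chosen 55.4% were lower at low altitude. By the two-sided Fisher's exact test on summed reads, adjusted over all windows by the Benjamini-Hochberg method, 1 chosen window was called at an adjusted p below 0.05, beside 1.42% of all windows. The band removes windows with a large difference, so nothing is read from this count.

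The window called is that of the largest rise, on chromosome 14 from 116237001 to 116238000. Over its 10 CpGs, 76 of 189 reads (40.2%) were methylated at high altitude. At low altitude 102 of 171 were (59.6%), which is 19.4 points more (adjusted p of the exact test 0.0332). The next largest rise was on chromosome 1 from 308964001 to 308965000, with 41.9% of 93 and 58.7% of 92 reads (adjusted p of the exact test 0.313). The largest falls were on chromosome 7 from 24329001 to 24330000, with 58.6% of 162 and 40.3% of 144 reads (adjusted p of the exact test 0.0881), and on chromosome 6 from 72707001 to 72708000, with 58.1% and 40.7% of 86 reads each. Apart from the first, these differences did not pass the adjusted test. The Wilson intervals of the pigs overlapped on chromosomes 1 and 6, and on chromosome 7 they were 50.9 to 65.9% and 32.6 to 48.4%.

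The levels of single CpGs within the chosen windows were spread widely and were not all near the middle. Of the CpGs, 31.1% at high and 32.2% at low altitude were themselves at 40 to 60%. Below 20% were 8.04% and 8.13%, and above 80% were 14.3% and 13.4%. At the depth of these libraries counting error alone spreads single CpGs, so the spread was set against it. For each window and library the chi-square of the CpG counts around the window level was divided by its degrees of freedom, a dispersion that is near 1 if all CpGs share a level and reads are independent.

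The median dispersion of the chosen windows was 2.50 at high and 2.37 at low altitude, and 1.82 and 1.75 in the windows not chosen. It was 2.20 and 2.11 in windows at over 60 to 80% and 1.42 and 1.38 in windows above 80% in both libraries. In windows below 40% in both it was 2.40 and 2.10, at median depths of 16.1 and 16.4 reads per CpG. Dispersion rises with depth, so the share of the possible variance of levels that lay between CpGs was computed too, which is 0% if all CpGs share a level and 100% if each CpG is fully methylated or fully free. Its median was 14.1% and 12.8% in the chosen windows, 12.2% and 11.3% at over 60 to 80%, 4.32% and 3.91% above 80%, and 7.87% and 6.94% in the 235 windows below 40%. By this measure the chosen windows were close to those at over 60 to 80%, and neither contrast was tested, since windows are not replicates of a pig.

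Few of the chosen windows were even in both libraries. The dispersion was at most 1.5 in both libraries in 108 of 1657 windows (6.52%), against 19.3% of all windows, and at most 1 in 17 (1.03%, against 4.12%). It was above 3 in both in 331 (19.98%), against 6.69% of all windows. Windows above 80% weigh heavily in these shares of all windows. The lower quartile of the mean dispersion was 1.79 in the chosen windows, close to 1.68 at over 60 to 80%. It was 1.48 below 40% and 1.11 above 80%. An even middle level over the CpGs, as known from imprinted control regions, was thus found in a minority of the windows, and the data do not bear out the name imprint-like for the group as a whole. The levels do not tell which of the even windows, if any, are methylated on 1 parental copy.

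**Figure D2:**
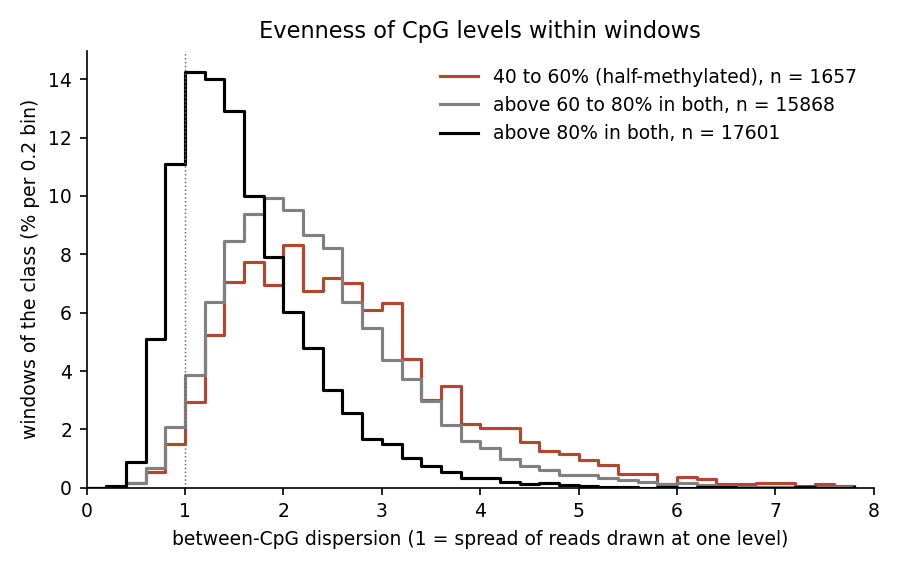
Between-CpG dispersion (x axis, mean of both libraries, without unit) of the chosen windows and of windows with higher levels, as % of each class per 0.2 step (y axis). The median was 2.47 in the 1657 chosen windows and 1.47 in those above 80%, the dotted line marks 1, and 9 chosen windows above 8 are not drawn.

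The pattern of high and low CpGs within a window recurred in part in the second pig. After removal of the window mean, the CpG levels of the 2 libraries had a correlation of 0.60 over the 19767 CpGs of the chosen windows, and of 0.42 over 573370 CpGs of the windows not chosen. By class it was 0.602 in windows below 40% in both libraries, 0.495 at over 60 to 80% and 0.288 above 80%, so the chosen windows were close to those below the band. These CpGs share windows, and both libraries share the sequence and the mapping, so the correlations are descriptions. The part of the spread that both libraries shared had an SD of 18.4 points between CpGs of a chosen window, against 11.9 points in the windows not chosen. It was 14.5 points in windows below 40%, 14.8 at over 60 to 80% and 7.68 above 80%, where levels near 100% leave less room.

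The 6 windows with the lowest dispersion among those with at least 15 CpGs show what an even window looks like. They had 7.10 to 10.95 reads per CpG at high and 6.14 to 12.6 at low altitude, against medians of 11.4 and 11.3 in the chosen windows. The part of depth in their evenness was not tested. On chromosome 9 from 54331001 to 54332000, 43.8% of 146 reads (95% Wilson interval 36.0 to 51.9) were methylated at high and 44.9% of 136 reads (36.8 to 53.2) at low altitude. The dispersion was 0.83 and 0.61, and 14 of 15 CpGs were at 20 to 80% in each library. The 3 windows around it, within 3 kb, had mean levels of 62.7% and 64.7%, levels above that of the window.

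A window on chromosome 16 from 85299001 to 85300000 had 55.7% of 131 and 56.2% of 153 reads methylated, and its 16 CpGs ranged from 28.6 to 83.3% over both libraries. Its flanks had 71.5% and 63.2%. The window on chromosome 2 from 68104001 to 68105000 held 20 CpGs, with 55.7% of 219 and 49.2% of 252 reads methylated, and no window within 3 kb could be read. These 3 windows are the upper row of the plot of single CpG levels, and the left-right test described further on called a step in none of them.

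Of the other 3 even windows, that on chromosome 13 from 212086001 to 212087000 had 57.0% of 128 and 46.7% of 169 reads methylated, and its flanks had 68.0% and 53.4%. That from 13952001 to 13953000 on the same chromosome had 57.7% of 149 and 53.1% of 130 reads methylated, between flanks of 65.7% and 57.7%. On chromosome 6 from 1947001 to 1948000, 21 CpGs within 515 bases had 49.7% of 149 and 45.7% of 129 reads methylated, while the 3 windows around them had 82.3% and 80.9%. This window was the shallowest of the 6, with 7.10 and 6.14 reads per CpG, and of the 5 with a window within 3 kb it had the most methylated flanks.

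Among windows with at least 15 CpGs, that of the highest dispersion mixed nearly free and nearly fully methylated CpGs. It lay on chromosome 2 from 100113001 to 100114000, where 15 CpGs within 169 bases had levels of 3.85 to 100% at high and 2.00 to 100% at low altitude, around window levels of 54.98% of 251 and 52.7% of 497 reads. Adjacent CpGs could differ sharply: that at 84 bases right of the centre had 21 of 22 and 33 of 35 reads methylated, and that at 100 bases had 1 of 21 and 1 of 41. From 100 to 150 bases all listed CpGs were low, at 3.85 to 26.9% at high and 2.00 to 34% at low altitude. The order recurred in both pigs, with a correlation of 0.93 over the 15 CpGs.

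The next among windows with at least 15 CpGs were on chromosome 15 from 155442001 to 155443000, with 44.9% of 708 and 41.2% of 522 reads, and on chromosome 2 from 120056001 to 120057000, with 55.5% of 398 and 58.0% of 386 reads. Their CpG patterns had correlations of 0.90 and 0.92 between the pigs over 18 and 16 CpGs. A window on chromosome 9 from 5321001 to 5322000 was the last of the 4, with 49.5% of 400 and 54.2% of 708 reads. All 4 were deep in at least 1 library, with 16.7 to 39.3 reads per CpG at high and 24.1 to 37.3 at low altitude, against medians of 11.4 and 11.3. The part of depth in these patterns was not tested.

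A window can also reach a middle level because a border runs through it. The CpGs of each window were split by their order into a left and a right side of equal number. The middle CpG of an odd number was left out, and the sides need not meet at the centre of the window. They were compared by the two-sided Fisher's exact test within each library, adjusted over all windows. A step was called if the adjusted p was below 0.05 in both libraries with the same direction. The test pools the reads of a side, so uneven CpGs without a border can be called too. A step was called in 252 of the 1657 chosen windows (15.2%), beside 3.84% of all windows. The share was 13.6% in windows below 40% in both libraries, 6.09% at over 60 to 80% and 0.705% above 80%, so steps were nearly as frequent in the 235 windows below the band. The step rose to the right in 120 and to the left in 132. The median dispersion was 3.59 in the called and 2.28 in the other chosen windows. The window on chromosome 2 from 100113001 to 100114000, described above, was called too, though its low CpGs lay between higher ones. A call thus does not show that a border runs through a window. In the high-altitude library alone 436 were called (26.3%, beside 10.9% of all windows) and in the low-altitude library alone 407 (24.6%, beside 10.1%), and no chosen window was called in both libraries with opposite directions.

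The share of steps was above that of all windows in each of 7 depth classes, with 10.3% of chosen against 1.75% of all windows at 5 to 8 reads per CpG, 20.1% against 4.77% at over 12 to 15, and 33.3% against 21.2% at over 30 to 40, a class of only 18 chosen windows. Within the called windows the median level was 71.7% on the higher and 35.9% on the lower side, as means of both libraries, and in 174 of the 252 the sides were below 40% and above 60%. The lower side was below 20% in 6 windows and the higher side above 80% in 39. Most steps thus led from below to above the band of 40 to 60%. A window level fixed at 40 to 60% and a step large enough to be called favour such sides, so nothing is read from this. Few steps reached levels under 20% or over 80%, as far as listed CpGs show it.

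The 3 windows with the smallest adjusted p, ranked by the larger value of both libraries, had steep steps. The window on chromosome 13 from 56115001 to 56116000 held 13 CpGs. Its left side had 27.1% at high and 27.3% at low altitude and its right side 91.5% and 88.3% (Fisher's exact test, adjusted p = 2.37e-15 and 3.87e-12). The middle CpG, 176 bases right of the centre, was left out of the test and had 11.1% and 18.2%. The 5 leftmost CpGs, up to 35 bases left of the centre, were at 9.09 to 30% at high and 5.26 to 40% at low altitude. The 4 rightmost, from 340 to 447 bases right of it, were at 85.7 to 100% and 88.9 to 100%.

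On chromosome 5 from 91163001 to 91164000 the sides had 86.7% and 33.3% at high altitude and 93.7% and 41.2% at low altitude (adjusted p of the exact test 1.50e-09 and 2.26e-09). There the outer CpGs at 473 and 491 bases right of the centre had 3 of 25 and 2 of 22 reads methylated at high, and 3 of 21 and 4 of 23 at low altitude. The window on chromosome 9 from 5321001 to 5322000, which was also among the 4 most dispersed, had 75.2% and 30.7% at high and 76.1% and 35.5% at low altitude (adjusted p of the exact test 1.93e-14 and 3.38e-22). In all 3 windows the step lay in the same direction in both pigs and was larger than 40 points.

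**Figure D3:**
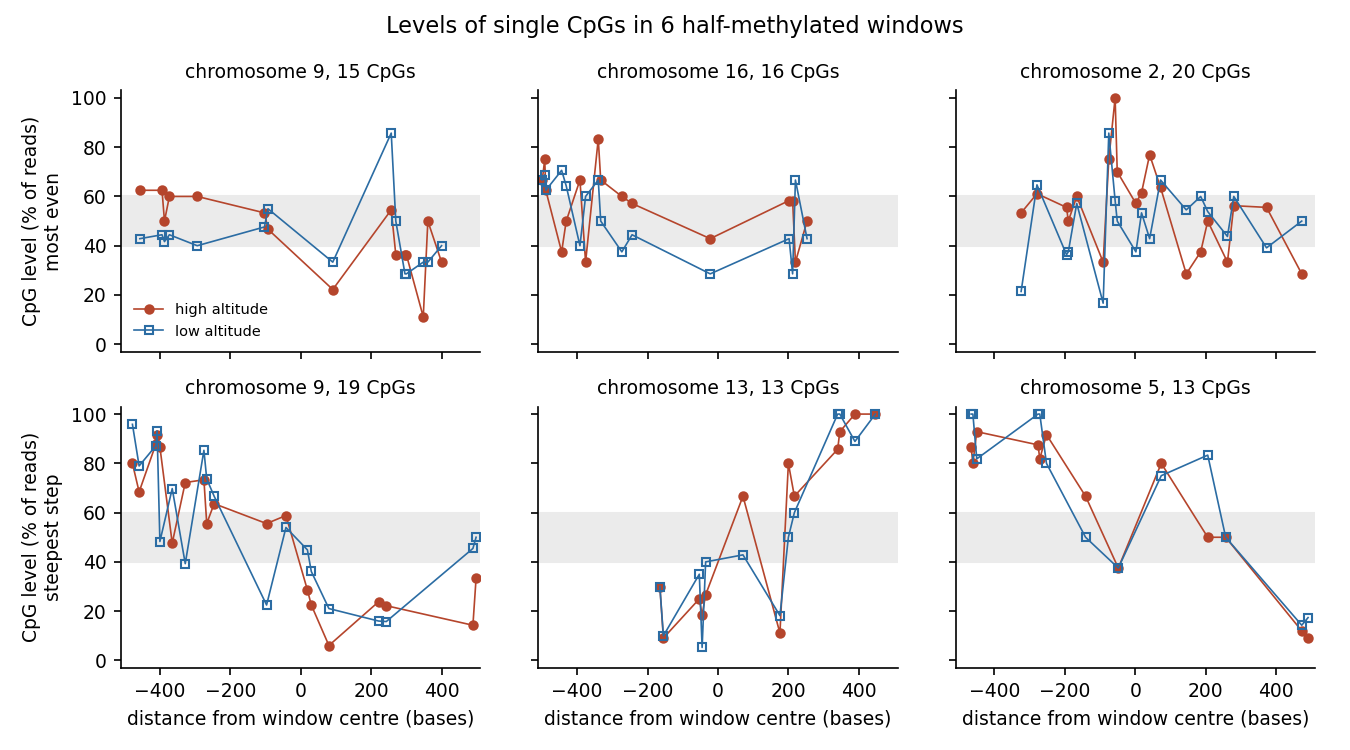
Level of each CpG (y axis, % of reads) by its distance from the centre of the window (x axis, bases) in 6 chosen windows, with filled circles for the high-altitude and open squares for the low-altitude library and the band of 40 to 60% in grey. The upper row shows the 3 most even windows with at least 15 CpGs, the lower row the 3 with the clearest steps, whose sides differ by over 40 points in both libraries.

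No chosen window was called between its strands in both libraries. Where at least 5 CpGs were listed on both strands in both libraries, the plus and the minus strand were compared by the same exact test, which was possible in 199 chosen windows. The number called was 0, beside 0% of 5679 windows tested, and 2 (1.01%) had an unadjusted p of Fisher's exact test below 0.05 in both with the same direction, beside 0.546%. The median size of the strand difference was 7.45 points at high and 6.63 points at low altitude, against 5.03 and 5.37 points in the windows not chosen. It was 5.97 and 6.24 points at over 60 to 80% and 5.78 and 5.02 points below 40%. Counting error varies with the level, and these contrasts were not tested. In the high-altitude library none of the 199 was called, beside 0.0528%, and in the low-altitude library 1, beside 0.0704%. It lay on chromosome 17 from 14501001 to 14502000, with 31.0% on the plus and 69.9% on the minus strand at low altitude (Fisher's exact test, adjusted p = 0.000633) and 57.3% and 69.4% at high altitude (adjusted p of the exact test 0.767).

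The surroundings of the chosen windows were less methylated than those of other windows, over a distance well beyond 1 kb. Windows directly beside a chosen one had a median level of 66.0% in both libraries, against 79.5% and 78.3% beside the windows not chosen. The median rose with distance, to 70.8% and 69.4% at 5 kb and to 73.9% and 72.0% at 50 kb, where it was still below the 78.9% and 77.8% found around the windows not chosen. Without neighbours that were chosen themselves, the medians beside a chosen window were 67.5% and 67.0%. Windows at over 60 to 80% had neighbours at 76.0% and 75%, and windows below 40% at 42.4% and 40.3%. These contrasts were not tested.

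Both isolated and broad forms occurred among the chosen windows. In 1446 of them at least 1 window within 3 kb could be read, with at least 5 shared CpGs. The mean of these flanks was above 70% in 686 (47.4%), from 40 to 70% in 704 (48.7%) and below 40% in 56 (3.87%). At least 1 of the flanking windows was below 40% in 181 (12.5%). These shares were not computed for the windows not chosen. Among 367 adjacent windows that met the conditions for choice, 80 (21.8%) were chosen too, where a pair counts from both of its windows. Beside the windows not chosen the share was 2.68% of 10727.

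**Figure D4:**
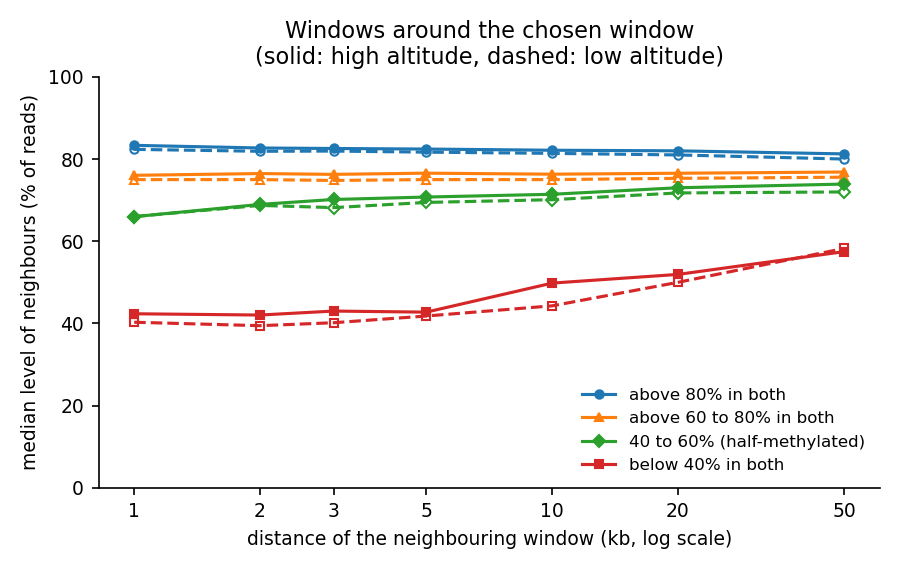
Median level (y axis, % of reads) of windows at 1 to 50 kb (x axis, log scale) from windows of 4 level classes, solid lines for the high-altitude and dashed lines for the low-altitude library. Neighbours of the chosen windows rise from 66.0% at 1 kb to 73.9% (high altitude) and 72.0% (low altitude) at 50 kb and stay below those of the classes with higher levels.

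Joined across gaps of up to 1 kb, the 1657 windows formed 1592 regions, of which 1539 were single windows, 44 held 2 windows and 9 held 3 or more. The 118 windows in regions of 2 or more were 7.12% of all chosen. The longest region, with 5 windows and 64 CpGs, ran on chromosome 9 from 6727001 to 6734000. It had 50.2% of 886 reads methylated at high altitude (95% Wilson interval 46.9 to 53.5) and 50.2% of 691 reads at low altitude (46.5 to 53.9).

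Within that region the 5 windows had levels of 55.7, 54.2, 48.9, 44.0 and 53.1% from left to right at high altitude, and of 52.1, 58.1, 42.0, 48.9 and 58.0% at low altitude. No step was called in any of them. A window between them, with 5 CpGs, had 35.1% and 37.7%, and the 2 windows directly after the region had 49.2% and 59.2% at high and 44.95% and 50% at low altitude. Before the region, the window from 6724001 to 6725000 had 48.98% and 51.7% over 8 CpGs. Middle levels were thus also read on both sides of the region, at 13.8 and 10.8 reads per CpG within the region, while the dispersion of its windows averaged 2.78.

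The region with the most CpGs, 67 in 3 windows, was on chromosome 6 from 33886001 to 33889000, where 660 of 1500 reads at high and 503 of 1143 at low altitude were methylated, 44.0% in both. On chromosome 12 from 791001 to 796000, 4 windows with 47 CpGs had 50.4% of 1029 and 50.5% of 939 reads methylated. A window between them, not chosen, had 34.95% and 25.8% over 8 CpGs. On chromosome 1 from 17001 to 21000, 3 windows with 38 CpGs had 48.3% of 851 and 48.5% of 752 reads. A window between them, not chosen, had 37.2% and 31.0% over 7 CpGs. The level of each region sums its chosen windows only. By these sums the pigs differed by less than 1 point in the 3 regions, far within the counting error.

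The pigs differed more in the other 2 of the 6 regions with the most CpGs. The region on chromosome 17 from 69491001 to 69494000 had 587 of 1267 reads methylated at high altitude (46.3%, 43.6 to 49.1), and 558 of 1356 at low altitude (41.2%, 38.6 to 43.8). On chromosome 2 from 100108001 to 100111000 it was 51.2% of 1177 (48.4 to 54.1) and 46.5% of 1511 reads (44.0 to 49.0). The intervals of the pigs overlapped slightly in both. Apart from that on chromosome 9, these regions were deep, with 20.4 to 22.4 reads per CpG at high and 17.1 to 26.5 at low altitude, and windows beyond the depth limit lay next to those on chromosomes 17 and 6 and within 2 kb of those on chromosomes 2 and 1. On chromosome 17 the window from 69492001 to 69493000, between the chosen windows of the region, had 72.1 and 73.7 reads per CpG, at 38.9% and 37.8%. The window from 69494001 to 69495000 on chromosome 17 had 236 and 427 reads per CpG, at levels of 44.7% and 47.1%. That from 33885001 to 33886000 on chromosome 6 had 77.9 and 53.7 reads per CpG, at 44.0% and 40.04%. The part of depth in these levels was not tested.

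Depth moved with the choice over all windows. The share of windows chosen was 2.53% at a mean depth of 5 to 8 reads per CpG (95% Wilson interval 2.18 to 2.92), 3.10% at over 10 to 12 (2.80 to 3.43), 4.24% at over 15 to 20 (3.73 to 4.82), 11.8% at over 20 to 30 (10.04 to 13.8) and 15.3% at over 30 to 40 (9.87 to 22.8). Windows deeper than 20 reads per CpG in at least 1 library were 11.9% of the chosen and 4.003% of all windows. Of the 780 windows beyond the depth limit of 40, 171 (21.9%) lay in the band. The share of variance between CpGs did not follow depth in the same way, with medians at high altitude from 11.5% to 14.5% over the 7 depth classes.

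Along the genome the chosen windows were spread over all 18 autosomes, with local concentrations. The share ran from 1.97% of windows on chromosome 18 (95% Wilson interval 1.49 to 2.62) and 2.31% on chromosome 8 to 4.43% on chromosome 17 (3.46 to 5.67) and 4.92% on chromosome 6 (4.24 to 5.69). Within 1 Mb of a chromosome end it was 4.77% (3.86 to 5.89), and 3.39% more than 10 Mb from the ends (3.20 to 3.599). Neighbouring windows are not independent, so these intervals are too narrow.

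**Figure D5:**
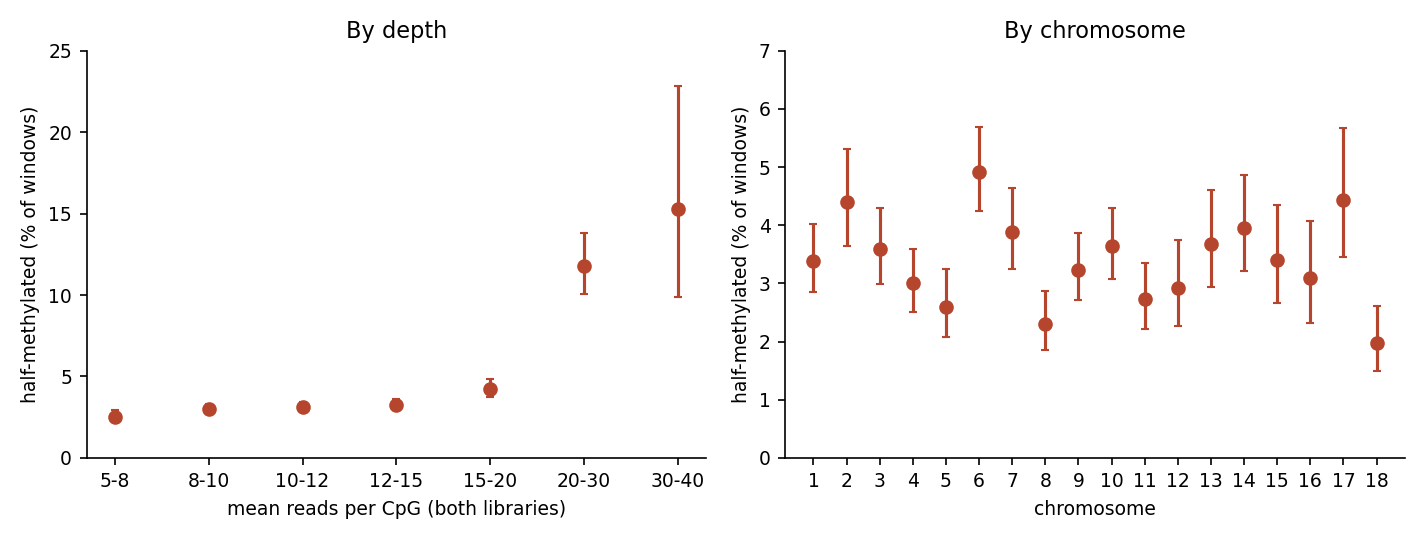
Share of windows at 40 to 60% in both libraries (y axis, % of windows that met the CpG condition) by mean reads per CpG (left) and by chromosome (right), with 95% Wilson intervals as bars. The share lies between 2.53% and 4.24% up to 20 reads per CpG and reaches 15.3% at over 30 to 40, and among chromosomes it is lowest on 18 and highest on 6.

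Of 2419 bins of 1 Mb with a window, 918 held a chosen window and 578 of these held a single one. A small group of 40 bins with 5 or more held 328 of the chosen windows (19.8%), against 5.84% of all windows. The bins named here were picked after their values were seen. The most chosen windows, 28 of 114, lay on chromosome 10 from 23000001 to 24000000, at median levels of 50.7% and 49.6% and 13.8 and 16.1 reads per CpG. On chromosome 7 from 25000001 to 26000000, 22 of only 32 windows (68.8%) were chosen, with 24.8 reads per CpG at high but 14.5 at low altitude.

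Other dense bins were those on chromosome 9 from 5000001 to 6000000, with 19 of 159 windows, and from 6000001 to 7000000, with 15 of 55. On chromosome 6 from 156000001 to 157000000, 16 of 119 windows were chosen, with a median dispersion of 1.82, the lowest of the 10 bins with the most chosen windows. The bin on chromosome 17 from 69000001 to 70000000 held 13 among 32 windows and that on chromosome 3 from 45000001 to 46000000 held 12 among 21, with median dispersions of 4.25 and 4.44 and 19.02 to 24.8 reads per CpG. Dense bins thus included both deep, uneven windows and windows near the usual depth.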

How the data were processed

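Whole-genome bisulfite sequencing measured 1 muscle library per pig, so no replicate error exists. The authors used Bismark 0.12.5, per the submitters' processing notes; for the genome build, read filters and duplicates they are silent (not given in the sources used here). The results rest on the counts of methylated and unmethylated reads per cytosine that the authors deposited. The authors' methylation level, a fraction, and both p-value columns, named so per the file headers, were not used. Cytosines listed in both libraries were joined over the strands of each CpG, and levels are methylated reads over all reads, without correction for non-conversion. Both libraries had a median of 8 reads per cytosine. On 17 of 18 autosomes, positions exceeded the end of the final gene in RefSeq's table for Sscrofa11.1, by up to 41.0 Mb, so no gene was assigned. Fisher's exact tests were adjusted by the Benjamini-Hochberg method over all windows of a comparison and tested on simulated reads. These were drawn independently, with a shared level for the CpGs of a window or side. The simulation thus covered neither uneven CpGs nor reads over several CpGs. One read can cover several CpGs, which makes these p-values too small.

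The windows named are the 6 regions with the most CpGs; among windows of at least 15 CpGs the 6 of lowest and 4 of highest dispersion; the 2 largest rises and falls; the 3 smallest adjusted p of the left-right test; and 2 on each side of each band edge. Bins were named after their values were seen. The members and the rules were chosen with earlier results of these data known. Alternatives covered depth, number of CpGs, band, window grid, the depth limit and the way a level is averaged. Python 3.11.15, numpy 2.4.6, pandas 2.3.3 and scipy 1.17.1 were used.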

Additional observations from a re-analysis of the deposited data

How the results depend on the processing

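The median difference was below 0 under all 9 alternatives, and its interval over windows reached or crossed 0 in 5 of them. These were at least 10 reads, at least 15 CpGs, a band of 45 to 55% and windows shifted by 500 bases. The last was the removal of the 40 bins that held 5 or more chosen windows. The interval treats windows as replicates, while each group has a single pig, and the band limits the difference. It is thus no test between the pigs, and nothing is read from its position against 0. Under the 9 alternatives steps took 10.4 to 26.6% of chosen against 3.08 to 8.37% of all windows; the classes of other levels were not recomputed. The number of chosen windows followed the conditions. It was 192 with at least 10 reads per CpG, 190 with at least 15 CpGs, 4673 with at least 8 CpGs and 476 in a band of 45 to 55%. Steps were then called in 51, 37, 488 and 75 windows. Of windows chosen at high altitude, 67.1, 62.1, 54.7 and 37.9% recurred at low altitude under these 4 settings, and in the opposite direction 67.1, 56.7 and 33.4% with at least 10 reads, with at least 15 CpGs and in the narrow band. Without a depth limit this second share was 52.7%, with depth up to 20 it was 49.2%. Without the 40 dense bins, an alternative chosen after seeing the data, the shares were 53.6 and 47.6%. The median difference was −0.15 points in the narrow band.

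Windows called between the libraries numbered 0 in the narrow band, 6 with windows shifted by 500 bases, 33 without a depth limit and 6 with the mean of CpG levels. Windows called between strands numbered 1 in the shifted grid and 17 without a depth limit. The median dispersion was 3.73 with at least 10 reads, 2.69 with at least 15 CpGs, 2.62 in the narrow band, 2.62 without a depth limit, 2.33 with depth up to 20 and 2.40 without the dense bins. The median level of windows 1 to 10 kb away, 69.96% in the analysis reported, was 49.9% with at least 10 reads, which the neighbours then needed too, 59.5% with at least 15 CpGs, 70.8% with at least 8, 69.0% in the narrow band, 66.7% without a depth limit, 72.2% with depth up to 20 and 73.4% without the dense bins. The cause of these shifts was not tested. No paired analysis was possible because each group has a single pig. Depth limits the precision of single windows, the least covered of which had 53 reads, and CpGs without methylated reads were not seen.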
